A study of Mus musculus with 90 samples.

Results

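Complement and coagulation genes were followed through a liver RNA-seq series on caloric restriction and the glucocorticoid receptor (GR) in mice. The set was chosen by function, as a list of 37 symbols: the complement components and their regulators, fibrinogen, the clotting enzymes and their cofactor, the contact system, the anticoagulants and the plasmin system. The choice was made with earlier results of these data known. Of these, 36 were found among the 27654 gene IDs of the count tables, and Klkb1 was not analysed here.

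Complement is a cascade of plasma proteins, made mostly by hepatocytes, that is set off by antibodies, by sugar-binding lectins or by the spontaneous turnover of C3. Its branches meet where C3 is cut and end in the membrane attack complex, a pore built from the late components. Coagulation is a cascade of liver-made proteases in which thrombin turns fibrinogen into fibrin and plasmin later dissolves the clot, and several proteins of both cascades are acute phase proteins, whose genes are known to respond to interleukin-6 and glucocorticoids.

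The study asked how hepatic GR takes part in the response to reduced calorie intake, and it sequenced polyA RNA of whole liver from young adult male mice in 90 libraries, which fall into 28 groups of 3 or 4. In WT C57BL/6J mice at ZT12, 3 livers after caloric restriction were set against 3 after control diet, and 3 livers after corticosterone against 3 controls. Zeitgeber time (ZT) counts hours from lights on, and ZT12 is lights off, when food was given. A time series at ZT0, ZT4, ZT8, ZT12, ZT16 and ZT20 compared livers lacking hepatocyte GR (GRLKO) with WT livers on each diet, with 36 libraries on caloric restriction and 42 on control diet.

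GRLKO mice carry a floxed GR gene (Nr3c1) deleted by Alb-Cre, which acts in cells that use the albumin promoter, mainly hepatocytes. Other liver cells keep the receptor. The WT mice of the time series carry the same floxed alleles without Cre, so an effect of Cre itself cannot be told apart from that of the deletion, and the WT mice of the diet and corticosterone experiments carry no floxed allele. Caloric restriction was built up in steps to a 40% reduction in calories and was fed at night. Control mice ate freely until the last week and then in the dark phase alone. The control libraries of the separate diet experiment bear AL in their titles and night-restricted feeding, the schedule of that last week, as their treatment. Corticosterone was injected daily for a week, and its controls received vehicle on the control feeding schedule. The replicates are described as biological, and p-values measure the spread between these samples.

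Total counts ranged from 36442195 to 39492146 in the diet experiment, from 13739631 to 16077943 in the corticosterone experiment, from 14235473 to 20788575 in the time series on caloric restriction, and from 10057544 to 17089004 in that on control diet. Levels are given in CPM, a gene's count relative to the scaled total of its library, computed within each of the 4 count tables and not corrected for gene length. The 36 members together took between 2.98% and 5.31% of a library's counts. Each of the 36 passed the filter on low counts in every comparison. The lowest was Proc, the protein C gene, with a median of 2.94 CPM over the 90 libraries and no count in 12 of them.

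The targeted gene was checked before the members. At ZT12 on caloric restriction, Nr3c1 stood at 103, 98.0 and 103 CPM in WT and at 30.9, 32.1 and 30.6 CPM in GRLKO. On control diet it stood at 83.7, 89.1, 76.1 and 88.9 CPM in WT and at 18.8, 20.8, 20.3 and 25.2 CPM in GRLKO. Every GRLKO library lay below every WT library. Over the whole day the WT libraries ranged from 70.1 to 113 CPM on caloric restriction and from 73.0 to 118 CPM on control diet, and the GRLKO libraries from 21.4 to 32.1 CPM and from 16.2 to 29.0 CPM. In the experiments without deletion, Nr3c1 was 88.7, 90.3 and 95.7 CPM on control diet and 84.3, 88.4 and 86.6 CPM on caloric restriction, and 74.2, 77.5 and 69.5 CPM without and 61.7, 83.9 and 66.0 CPM with corticosterone.

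Caloric restriction was compared with control diet in WT liver at ZT12 to ask how the members moved with the diet. The study reported higher corticosterone at ZT12 on caloric restriction, so diet and hormone cannot be told apart in this comparison. The genes of the membrane attack complex C8a, C8b and C9 fell steeply, most genes that start the classical and lectin pathways fell, and C3, where the pathways meet, rose. The fibrinogen genes did not pass the test. A gene was taken as changed at an adjusted p under 0.05 (edgeR, quasi-likelihood F test, p adjusted by Benjamini-Hochberg over the genes tested). By this test 22 of 36 members changed, 8 upward and 14 downward, beside 47.1% of the 13062 genes tested (23.5% upward, 23.6% downward). The median size of a member's log2 fold change, in either direction, was 0.34, and that of all genes 0.37.

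C8a, which encodes a chain of the C8 complex, stood at 750.4, 617 and 752 CPM on control diet and at 88.5, 42.2 and 31.2 CPM on caloric restriction. C8b, its neighbour on the chromosome and partner in the same complex, stood at 356, 333 and 415 CPM and at 78.6, 40.6 and 37.4 CPM. All 3 libraries on caloric restriction were far below all 3 controls for both genes, with replicate 1 the highest of the restricted libraries. The log2 fold change, given with its standard error (SE), was −3.71 ± 0.39 for C8a (edgeR adjusted p = 0.000524) and −2.82 ± 0.29 for C8b (edgeR adjusted p = 0.000514). C9, which forms the ring of the pore, read 415, 325 and 425 CPM on control diet and 83.6, 54.6 and 56.8 CPM on caloric restriction, a log2 fold change of −2.58 ± 0.19 (edgeR adjusted p = 0.000194). C8g, the third C8 chain, fell by 0.38 ± 0.07 on the log2 scale, and Hc, which encodes C5, had a log2 fold change of −0.19 ± 0.07 that did not pass (edgeR adjusted p = 0.0678).

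Among the 7 genes that start complement, 6 fell and 1 rose. Mbl1, a mannose-binding lectin, stood at 49.3, 49.3 and 45.6 CPM on control diet and at 22.6, 25.1 and 24.3 CPM on caloric restriction, with no overlap (log2 fold change −1.001 ± 0.07, edgeR adjusted p = 0.000185). Mbl2, the second mannose-binding lectin, went the other way, from 253, 267 and 279 CPM to 338, 344 and 395 CPM (0.43 ± 0.09, edgeR adjusted p = 0.0065). The restricted libraries were all lower than the controls for Mbl1 and all higher for Mbl2. C2 and C4b, which build the enzyme that cuts C3, fell by 0.71 ± 0.11 and 0.52 ± 0.11 on the log2 scale, and the proteases Masp1, Masp2 and C1s1 fell by 0.64, 0.56 and 0.31. Reads of C4b and C1s1 can be shared with the near-identical copies C4a and C1s2, so these values are uncertain.

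C3 stood at 4993, 5084 and 5573 CPM on control diet and at 9510.5, 10145 and 10967 CPM on caloric restriction. The lowest restricted library was well above the highest control (log2 fold change 0.97 ± 0.09, edgeR adjusted p = 0.000333). Cfb, the protease of the alternative pathway, rose by 0.34 ± 0.09. Of the 4 regulators, C4bp, which binds and disables C4b, fell by 0.90 ± 0.12 on the log2 scale, and Serping1, the inhibitor of C1 and of the contact proteases, fell by 0.56 ± 0.09. Cfi and Vtn, the other 2 regulators, did not pass.

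**Figure D1:**
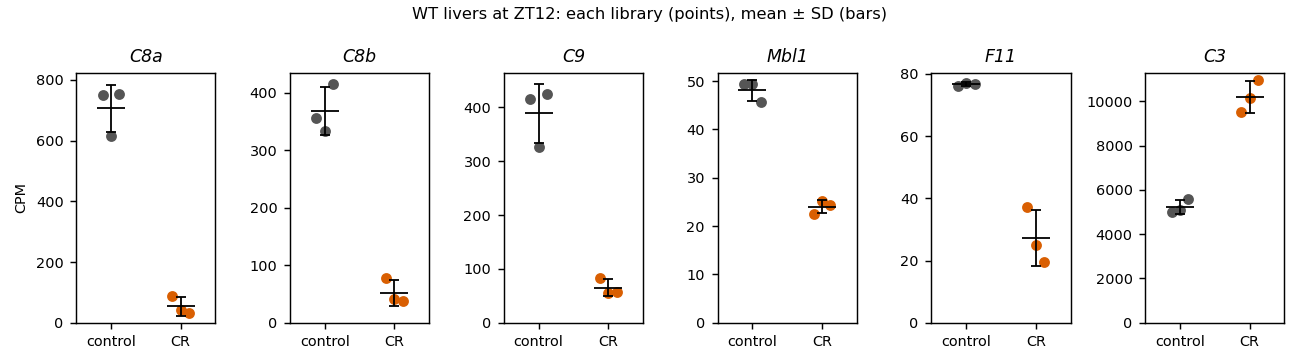
CPM of 6 members in each liver library on control diet and on caloric restriction at ZT12, with the mean and SD of each group (3 libraries a group). C8a, C8b, C9, Mbl1 and F11 are lower and C3 is higher in each restricted library than in each control library, with C8a between 31.2 and 88.5 CPM against 617 to 752 CPM.

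Among the coagulation genes, fibrinogen did not pass. Fga, the fibrinogen alpha chain, stood at 3627, 3993 and 3855 CPM on control diet and at 4050.4, 3377 and 3605 CPM on caloric restriction. The groups overlapped, as they did for Fgb and Fgg, the beta and gamma chains, and the log2 fold changes of the 3 chains were −0.06 ± 0.09, −0.09 ± 0.09 and −0.02 ± 0.10. By edgeR 0 of the 4 genes of fibrinogen and its crosslinking passed, and 0 had an unadjusted p under 0.05. Of the clotting enzymes, F2 (prothrombin) and F10 rose by 0.21 ± 0.07 and 0.31 ± 0.07, while F7 and F9 did not pass.

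F11, a protease of the contact system, stood at 76.1, 77.2 and 76.9 CPM on control diet and at 37.3, 25.1 and 19.4 CPM on caloric restriction. Restricted replicate 1 was the least low, and no restricted library reached a control (log2 fold change −1.49 ± 0.21, edgeR adjusted p = 0.00163). Kng1, the kininogen that releases bradykinin, went from 1997, 2134 and 2031 CPM to 3220.3, 2791 and 3132 CPM, and rose by 0.57 ± 0.08 (edgeR adjusted p = 0.00169). Kng2 is a close copy that can share its reads. Serpinc1, antithrombin, went from 361, 346 and 365 CPM to 500.0, 529 and 572 CPM, and rose by 0.58 ± 0.08 (edgeR adjusted p = 0.00132). For both genes the restricted libraries lay wholly above the controls. In the plasmin system Serpinf2, the main inhibitor of plasmin, fell by 0.38 ± 0.11, and Plg and Cpb2 did not pass.

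F5, the cofactor of the thrombin-forming complex, stood at 577, 675 and 759 CPM on control diet and at 839, 799 and 913 CPM on caloric restriction. The gap between the groups was narrow (0.34 ± 0.11, edgeR adjusted p = 0.0413). The F5 call was lost without control replicate 1 or 2 or without restricted replicate 1, 2 or 3 (edgeR adjusted p = 0.113, 0.103, 0.0581, 0.0643 and 0.112). In the separate WT livers of the time series at ZT12, where diet and library batch coincide and cannot be told apart, 17 members passed and 13 of them were among the 22. The share of all genes in that fit is not given here, so the 17 are not set against other genes. There Mbl1 (−0.45, edgeR adjusted p = 0.0971) and Serpinc1 (0.08, edgeR adjusted p = 0.384) did not pass, and the falls of C8a, C8b and F11 were smaller, with log2 fold changes of −1.71, −1.67 and −0.86.

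Cell type markers moved in this comparison as well. The 7 hepatocyte markers in the tables summed to 90684, 91130.0 and 95068 CPM on control diet and to 160213, 165243 and 170418 CPM on caloric restriction. Of the 7, 4 rose, with Alb, the most abundant, up by 0.99 ± 0.07. Asgr1 (0.02 ± 0.09), Apoa1 (−0.13 ± 0.10) and Ttr (0.24 ± 0.09) did not pass. The 6 endothelial markers summed to 116, 149 and 153 CPM and to 194, 194 and 222 CPM, with 4 of 6 higher and Clec4g the most abundant. The 6 stellate markers summed to 168, 199 and 213 CPM and to 249, 282 and 286 CPM, with Dcn the most abundant, 2 of 6 higher and 1 lower. Sums of scarcer markers did not overlap either: lymphocyte 2.06, 2.61 and 3.64 CPM against 0.883, 0.908 and 1.09 CPM, neutrophil 0.326, 0.655 and 0.659 CPM against 0.170, 0.234 and 0.273 CPM, and platelet 3.06, 3.06 and 3.46 CPM against 3.97, 4.12 and 4.17 CPM. Cd79a of the lymphocyte list and Alas2 of the erythrocyte list fell, with log2 fold changes of −3.78 ± 0.54 and −2.89 ± 0.18. Sox9 and Krt19 of the cholangiocyte list rose by 1.24 ± 0.25 and 1.00 ± 0.22, and Cd5l of the Kupffer and myeloid list fell by 0.50 ± 0.17. Of the adipocyte list, Cidec fell by 1.73 ± 0.29 and Fabp4 rose by 1.12 ± 0.21. The part of these shifts in the member results was not tested. In whole liver, fewer cells of a type and less RNA per cell cannot be told apart.

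Related genes outside the set were read from lists of known pathway genes. Of 25 other complement genes tested, 2 rose and 7 fell, and of 27 other coagulation genes 7 rose and 6 fell. C6, which joins the membrane attack complex before C8, stood at 311, 287 and 363 CPM on control diet and at 25.8, 21.6 and 25.3 CPM on caloric restriction, a log2 fold change of −3.73 ± 0.12 (edgeR adjusted p = 1.72e-05). Its restricted libraries were all far below the controls, like those of C8a, C8b and C9. F3, tissue factor, fell by 1.38 on the log2 scale, and F2r, a thrombin receptor, fell by 1.504. Of 19 acute phase genes 7 rose and 4 fell, the latter the serum amyloid genes Saa1, Saa2, Saa3 and Saa4.

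Corticosterone was compared with vehicle in WT liver at ZT12, to set the hormone apart from the diet. The genes of all 3 fibrinogen chains rose, together with C4b, Mbl1, Hc and the regulators Serping1 and Cfi, and no member fell. In all, 8 of 36 members changed by edgeR, all upward, beside 8.11% of 11523 genes tested (4.47% upward, 3.64% downward). The median log2 fold change was 0.29 over the members and −0.01 over all genes tested. An unadjusted p under 0.05 was reached by 19 members, beside 2997 of 11523 genes. DESeq2 called 14 members. The share of all genes by DESeq2 is not given, here or below, so its counts do not set the members against other genes.

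C4b stood at 1236, 1238 and 1459 CPM in controls and at 2167, 2863 and 2291 CPM with corticosterone. All 3 treated libraries lay above all 3 controls, with treated replicate 2 the highest (log2 fold change 0.90 ± 0.14, edgeR adjusted p = 0.0133). Fga went from 2472, 2714 and 3511 CPM to 4544, 6128 and 4751 CPM, Fgb from 2413, 2492 and 2982 CPM to 4028, 5162 and 4960.5 CPM, and Fgg from 1628, 1753 and 2246 CPM to 2534, 3584 and 3159.5 CPM. None of the 3 chains overlapped between groups, and control replicate 3 was the highest control for each. Their log2 fold changes were 0.83 ± 0.18, 0.84 ± 0.14 and 0.72 ± 0.17 (edgeR adjusted p = 0.0336, 0.0161 and 0.0493).

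Mbl1 stood at 24.3, 26.8 and 22.1 CPM in controls and at 42.6, 39.4 and 35.2 CPM with corticosterone, without overlap (0.68 ± 0.11, edgeR adjusted p = 0.0172). Hc stood at 928, 952 and 1012 CPM and at 1390.2, 1714 and 1429 CPM (0.65 ± 0.11, edgeR adjusted p = 0.0185). Serping1 and Cfi, which hold complement in check, rose by 0.48 ± 0.11 and 0.41 ± 0.10. C3 read 6064, 6849.7 and 6974 CPM in controls and 8333, 15222 and 7979 CPM with corticosterone. Treated replicate 2 stood far above the other treated libraries, and C3 did not pass (0.67 ± 0.25, edgeR adjusted p = 0.151). By edgeR 0 of the 5 clotting enzymes and factor V and 0 of the 3 contact genes passed.

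**Figure D2:**
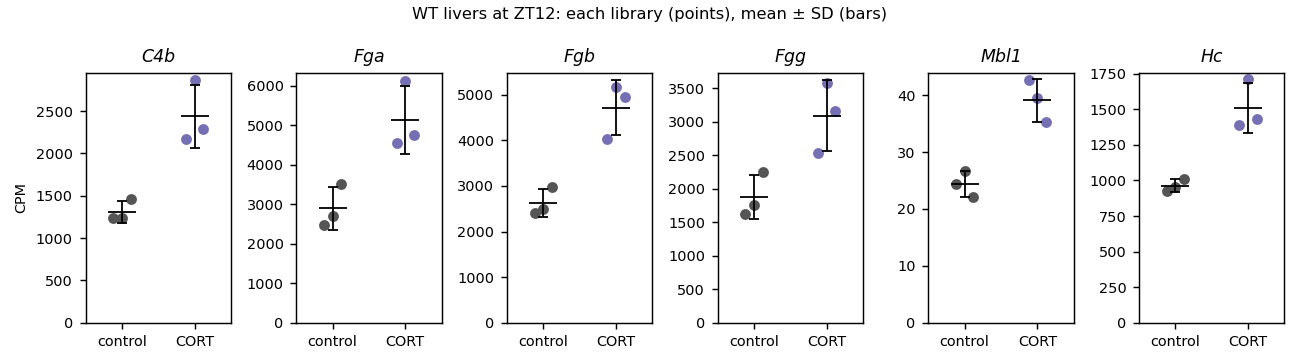
CPM of 6 members in each liver library of control and corticosterone-treated mice at ZT12, with the mean and SD of each group (3 libraries a group). The treated libraries lie above the controls for C4b, Fga, Fgb, Fgg, Mbl1 and Hc, with Fga between 4544 and 6128 CPM against 2472 to 3511 CPM.

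These calls lie near the threshold and depend on single libraries. Without control replicate 1 or 2, 0 members passed by edgeR, against 8 with all 6 libraries. The count was 3 without control replicate 3, and 3, 5 and 3 without treated replicate 1, 2 and 3. The Fgg call was lost whichever of the 6 libraries was left out (edgeR adjusted p = 0.144, 0.169 and 0.0548 without control replicate 1, 2 and 3, and 0.0541, 0.0797 and 0.118 without treated replicate 1, 2 and 3) and with another scaling (0.0505). Fga lost its call without control replicate 1 or 2 and without treated replicate 1, 2 or 3 (edgeR adjusted p = 0.108, 0.132, 0.0635, 0.0501 and 0.0708). Fgb lost it without control replicate 1 or 2 or treated replicate 3 (edgeR adjusted p = 0.0634, 0.0798 and 0.0515). C4b lost it without control replicate 1 or 2 (edgeR adjusted p = 0.0553 and 0.0708), and Mbl1 without control replicate 1, 2 or 3 or treated replicate 1 (edgeR adjusted p = 0.0634, 0.0565, 0.0561 and 0.0549).

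The members took 3.13%, 3.41% and 3.66% of counts in the control libraries and 4.10%, 4.40% and 5.31% with corticosterone. Of 18 acute phase genes outside the set, 16 rose and 0 fell by edgeR, and all 18 had an unadjusted p under 0.05. Saa1 went from 40.0, 34.0 and 31.9 CPM to 1715, 741 and 1438 CPM, and Lcn2, which binds bacterial iron carriers, from 0.933, 2.36 and 1.24 CPM to 181, 271 and 128 CPM. Of 17 genes of signalling and transcription factors, 6 rose and 1 fell, and 10 did not pass. Il6ra rose by 1.82 ± 0.36, Stat3 by 1.04 ± 0.12, Cebpb by 2.04 ± 0.16 and Cebpd by 2.67 ± 0.20, and Cebpa fell by 0.68 ± 0.12. Of 24 other complement genes tested 1 rose and 0 fell, and of 23 other coagulation genes 2 rose and 1 fell. Among the latter, Fgl1, a fibrinogen-like liver protein, rose by 2.68 ± 0.34.

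Markers of hepatocytes and of other cells moved in the same libraries. Of the hepatocyte markers 1 of 7 rose, Hnf4a, by 0.84 ± 0.16. Of the stellate markers 1 of 6 fell, Lrat, by 1.34 ± 0.21, and of the cholangiocyte markers 1 of 4 tested, Sox9, by 1.16 ± 0.24. The endothelial markers summed to 95.1, 102 and 120.4 CPM in controls and to 77.0, 85.9 and 92.0 CPM with corticosterone, and 1 of 6 fell. The 8 Kupffer and myeloid markers summed to 70.1, 87.4 and 92.8 CPM in controls and to 98.8, 114 and 139.5 CPM with corticosterone, with Clec4f the most abundant, and 2 of 8 rose. The 5 neutrophil markers summed to 0.0718, 0.618 and 0.622 CPM and to 1.57, 1.99 and 2.27 CPM, with S100a9 the most abundant. The 6 erythrocyte markers summed to 633, 698 and 789 CPM and to 299.7, 327 and 562 CPM, with Hbb-bs the most abundant, and 0 of 5 tested passed by edgeR while all 5 had an unadjusted p under 0.05. The part of these shifts in the member results was not tested.

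GRLKO was compared with WT on caloric restriction to ask which members moved when hepatocytes lost the receptor. At ZT12 the genes of all 3 fibrinogen chains, the clotting proteases F9 and F11, C8b, Hc, Plg and Cpb2 were lower without GR, and no member was higher by the test. By edgeR 9 of 36 members fell, beside changes in 15.3% of 11759 genes (7.42% upward, 7.84% downward). An unadjusted p under 0.05 was reached by 15 members, beside 3642 of 11759 genes. DESeq2 called 15 members, a count given without its share of all genes. The median log2 fold change was −0.15 over the members and 0.00 over all genes to that precision.

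C8b stood at 112, 183 and 95.3 CPM in WT and at 51.1, 45.2 and 40.0 CPM in GRLKO. WT replicate 2 was the highest, and every GRLKO library was below every WT library (log2 fold change −1.52 ± 0.24, edgeR adjusted p = 0.00779). C8a stood at 184, 457 and 165 CPM in WT and at 137, 81.9 and 65.1 CPM in GRLKO, where WT replicate 2 again stood apart, and it did not pass (−1.51 ± 0.44, edgeR adjusted p = 0.0597). Hc fell by 0.42 ± 0.10 on the log2 scale, from 809, 889.7 and 764 CPM to 668, 584 and 597 CPM. C9 read 133, 216 and 155 CPM in WT and 137, 118 and 140.2 CPM in GRLKO, with overlap.

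F9, the clotting protease missing in haemophilia B, stood at 219, 257 and 250.02 CPM in WT and at 152, 151 and 147 CPM in GRLKO. The GRLKO libraries were close together and all below WT (−0.69 ± 0.09, edgeR adjusted p = 0.00302). F11 stood at 41.6, 58.0 and 45.3 CPM in WT and at 21.9, 30.2 and 20.5 CPM in GRLKO, again without overlap (−1.001 ± 0.18, edgeR adjusted p = 0.012).

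Fga stood at 2919, 2675 and 2859.8 CPM in WT and at 1858, 2161 and 1602 CPM in GRLKO. Fgg stood at 2473, 2269 and 2405 CPM and at 1672, 1729 and 1383 CPM, and Fgb at 3641, 3204 and 3437 CPM and at 2645, 2811 and 2389 CPM. For each chain GRLKO replicate 3 was the lowest library and no groups overlapped. The log2 fold changes were −0.59 ± 0.12 for Fga, −0.58 ± 0.10 for Fgg and −0.40 ± 0.09 for Fgb (edgeR adjusted p = 0.0162, 0.0108 and 0.0285). Plg, the precursor of plasmin, and Cpb2, which protects clots from plasmin, fell by 0.38 ± 0.08 and 0.35 ± 0.09. The count of 9 was 4 without WT replicate 3 and 5 without GRLKO replicate 3. Without WT replicate 3, C8b, F11, F9 and Fgg passed. Fga (edgeR adjusted p = 0.0553), Fgb, Hc, Plg and Cpb2 lost their calls in that fit.

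**Figure D3:**
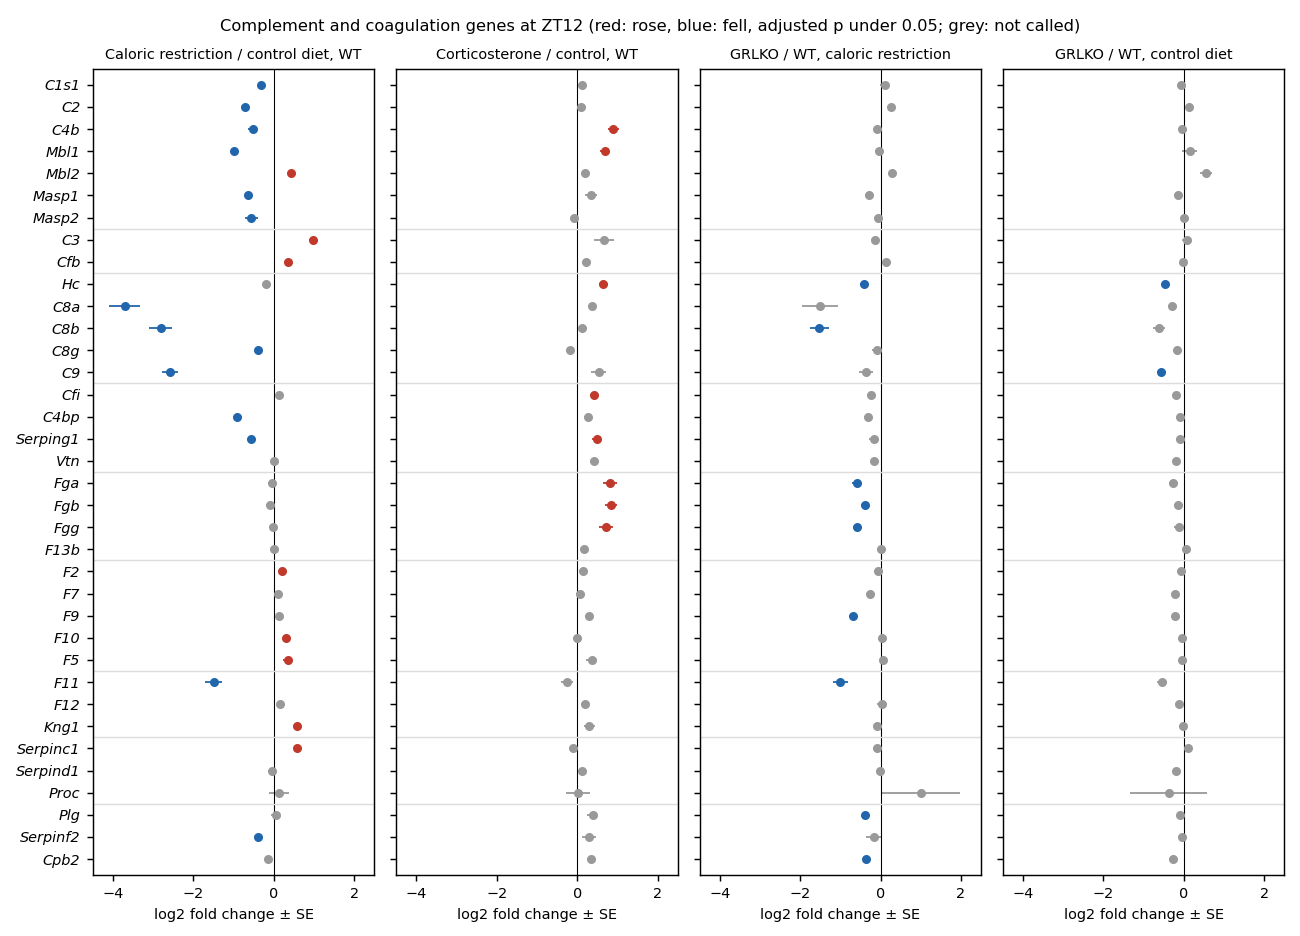
Log2 fold change with its SE for the 36 members at ZT12 in 4 comparisons: caloric restriction against control diet in WT, corticosterone against control in WT, and GRLKO against WT on each diet, caloric restriction before control diet. Members past the test are drawn in red where they rose and in blue where they fell (8 and 14, 8 and 0, 0 and 9, 0 and 2 in that order), and the others in grey.

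Cell type markers moved with genotype at this time as well. Of 5 erythrocyte markers tested 1 rose, Alas2, by 1.25 ± 0.18. The hepatocyte markers summed to 164616, 170534 and 174188 CPM in WT and to 123833, 131519 and 141641 CPM in GRLKO, and 4 of 7 fell, Alb included. The Kupffer and myeloid markers summed to 45.4, 52.5 and 72.8 CPM in WT and to 101, 125 and 127 CPM in GRLKO, and 4 of 8 rose, Clec4f, the most abundant, among them. The endothelial markers summed to 149, 164 and 179 CPM and to 198, 212 and 221 CPM, and 1 of 6 rose, Lyve1, by 1.06 ± 0.12. The lymphocyte sums, 0.279, 0.281 and 0.351 CPM against 0.691, 0.846 and 0.977 CPM, and the cholangiocyte sums, 26.4, 28.9 and 31.2 CPM against 31.4, 31.7 and 32.4 CPM, did not overlap either, while Sox9, the 1 cholangiocyte marker of 3 past the test, fell by 1.64 ± 0.44. Their part in the member results was not tested. C1qc, which macrophages make, rose by 1.08 ± 0.19 on the log2 scale, as 1 of 4 other complement genes of 24 that rose, and 2 fell. C6 fell by 1.77 ± 0.36, from 79.6, 140.5 and 48.7 CPM to 31.2, 26.2 and 21.3 CPM. Of 24 other coagulation genes 1 rose and 3 fell, and of 19 acute phase genes 1 rose and 7 fell. Of 17 genes of signalling and transcription factors 4 rose and 6 fell, with Il6ra down by 1.25 ± 0.14 and Cebpa up by 1.33 ± 0.10.

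At the other times on caloric restriction fewer members passed. At ZT0, F9 fell by 0.46 ± 0.07 (edgeR adjusted p = 0.0457), as 1 of 36 members beside 0.502% of all genes. F9 stood there at 179, 187 and 194 CPM in WT and at 140.5, 136 and 127 CPM in GRLKO, without overlap. Leaving out WT replicate 1, 2 or 3 or GRLKO replicate 2 or 3 left 0 members by edgeR, and without GRLKO replicate 1 another member passed in place of F9. At ZT4, 0 of 36 members passed by edgeR beside 0.69% of all genes. There 6 members had an unadjusted p under 0.05, beside 1755 of 12025 genes, and DESeq2 called 1. At ZT8, 0 passed by edgeR beside 2.55%, with 10 at an unadjusted p under 0.05, beside 2092 of 12070 genes, and 8 by DESeq2. The share of all genes by DESeq2 is not given for these times. The edgeR count was 1 without WT replicate 2 or 3 and 2 without GRLKO replicate 3. At ZT0, where F9 fell, the hepatocyte markers summed to between 120394 and 122424 CPM in WT and between 106551 and 113077 CPM in GRLKO. The lymphocyte sums were 3.11 to 4.03 CPM against 4.57 to 6.55 CPM and the neutrophil sums 0.747 to 1.29 CPM against 1.65 to 3.83 CPM, and the part of these shifts was not tested.

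Later in the dark phase, C2 and Mbl2 came out higher without GR. At ZT16 4 members passed beside 4.54% of all genes: Mbl2 and C2 rose by 0.54 ± 0.08 and 0.53 ± 0.08, and F11 and F9 fell by 0.59 ± 0.13 and 0.49 ± 0.09. Mbl2 stood at 329, 313 and 307 CPM in WT and at 449, 461 and 459 CPM in GRLKO, and C2 at 91.8, 83.8 and 87.6 CPM and at 124, 134 and 121 CPM. Neither gene overlapped between genotypes. The count of 4 was 2 without WT replicate 1, 2 or 3 or GRLKO replicate 1 or 2. At ZT20, C2 rose by 0.56 ± 0.09, from 86.7, 90.5 and 84.0 CPM to 122, 120.1 and 139.7 CPM, as 1 of 36 members beside 1.47%. No member passed by edgeR there without WT replicate 1, 2 or 3 or GRLKO replicate 2 or 3. With all libraries of that time, 9 members had an unadjusted p under 0.05, beside 2340 of 12076 genes. DESeq2 called 7, a count given without its share of all genes.

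Marker sums differed with genotype beside these C2, Mbl2, F9 and F11 changes, and single markers were not tested at these times. At ZT16 the hepatocyte markers summed to 140058, 142864 and 151351 CPM in WT and to 108460.0, 135103 and 137948 CPM in GRLKO, and the adipocyte markers to 8.19, 8.55 and 9.06 CPM and to 15.6, 18.1 and 21.5 CPM. The lymphocyte sums were 0.373 to 0.530 CPM against 0.821 to 2.09 CPM and the neutrophil sums 0.216 to 0.825 CPM against 0.869 to 1.01 CPM. At ZT20 the adipocyte sums were 5.99 to 9.77 CPM against 10.9 to 13.1 CPM. Of the adipocyte markers, Cidec did not overlap at ZT16 (0.934 to 1.76 CPM against 8.46 to 13.6 CPM) or ZT20 (0.174 to 0.306 CPM against 1.12 to 3.52 CPM), and Fabp4 overlapped at both. The part of these shifts in the member results was not tested.

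On control diet, members passed at ZT8, ZT12 and ZT16. At ZT8, C9, Hc, C8b and C8a fell, 4 of 36 members beside 1.43% of all genes. C9 stood at 512, 507, 499 and 514 CPM in WT and at 362, 376, 423 and 365 CPM in GRLKO, and Hc at 939, 921, 973 and 903 CPM and at 732, 734, 739 and 696 CPM. The GRLKO libraries lay below the WT libraries for both genes, and the same held for C8b and C8a. The log2 fold changes were −0.41 ± 0.06, −0.36 ± 0.04, −0.36 ± 0.04 and −0.28 ± 0.05 (edgeR adjusted p = 0.0105, 0.00471, 0.00471 and 0.0214). In a joint fit of all control-diet libraries, 1 of these 4 members kept its call. The median log2 fold change of the 5 membrane attack genes was −0.41, −0.35, −0.36, −0.46, −0.20 and −0.45 at ZT0, ZT4, ZT8, ZT12, ZT16 and ZT20, and the times were not tested against each other. The adipocyte markers summed to between 4.46 and 7.24 CPM in WT and between 13.5 and 20.2 CPM in GRLKO at ZT8, where Cidec stood at 0.487 to 3.32 CPM and 8.93 to 14.5 CPM and Fabp4 overlapped, and their part was not tested.

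At ZT12 on control diet, C9 and Hc fell, 2 of 36 members beside 2.08% of all genes. Hc stood at 918, 1099.9, 951 and 926 CPM in WT and at 724, 744, 668 and 687 CPM in GRLKO (−0.46 ± 0.08, edgeR adjusted p = 0.0207). C9 stood at 565, 667, 716 and 519 CPM and at 429.6, 413, 397 and 434 CPM (−0.56 ± 0.10, edgeR adjusted p = 0.0299). No GRLKO library reached a WT library for either gene. The count was 3 without WT replicate 1, 1 without WT replicate 2 or GRLKO replicate 2, and 0 without WT replicate 3 or GRLKO replicate 1, 3 or 4. C9 lost its call without WT replicate 2 or 3 or GRLKO replicate 1, 2, 3 or 4 (edgeR adjusted p = 0.0952, 0.0693, 0.0826, 0.0828, 0.0783 and 0.0694), and Hc without WT replicate 3 or GRLKO replicate 1, 3 or 4 (0.0564, 0.0601, 0.0509 and 0.0637). By edgeR 0 members rose. In either direction 14 had an unadjusted p under 0.05, beside 1444 of 11428 genes. DESeq2 called 6, a count given without its share of all genes.

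Fibrinogen did not pass at ZT12 on control diet. Fga stood at 2531, 3222, 3336 and 3317 CPM in WT and at 2664, 2319.8, 2448 and 2912 CPM in GRLKO, where WT replicate 1 fell among the GRLKO libraries (−0.26 ± 0.11, edgeR adjusted p = 0.377). Fgb and Fgg overlapped too, with log2 fold changes of −0.14 ± 0.11 and −0.13 ± 0.11. The genotype difference of Fga did not pass the test for a difference between diets at this time (difference of log2 fold changes −0.32 ± 0.17, edgeR adjusted p = 0.423), nor did that of Fgg (−0.44 ± 0.16, edgeR adjusted p = 0.215), the 1 of the 4 fibrinogen genes with an unadjusted p under 0.05, or that of Fgb (−0.24 ± 0.15). The 7 hepatocyte markers summed to between 82488 and 100627 CPM in these WT libraries (median 88513 CPM) and between 67933 and 87992 CPM in GRLKO (median 73582 CPM), and 2 of 7 fell. Their part in the member results was not tested.

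At ZT16 on control diet, Mbl2 rose by 0.45 ± 0.07 (edgeR adjusted p = 0.0211), 1 of 36 members beside 1.98%, from 259, 233, 246 and 249.7 CPM to 357, 329 and 327 CPM. Every GRLKO library was above every WT library, yet without WT replicate 2 or 4 or GRLKO replicate 1, 2 or 3 the count by edgeR was 0. The hepatocyte markers summed there to between 88771 and 96665 CPM in WT and between 73027 and 87014 CPM in GRLKO, and the endothelial markers to between 105 and 109.6 CPM and between 80.2 and 103 CPM. Their part was not tested. At ZT0, ZT4 and ZT20, 0 of 36 members passed by edgeR beside 0.536%, 0.195% and 0.42% of all genes. An unadjusted p under 0.05 was reached by 13, 12 and 7 members, beside 1798 of 11749, 1152 of 11817 and 1346 of 11906 genes. DESeq2 called 10, 5 and 4 members, counts given without their share of all genes. At ZT12 on control diet, 1 of 23 other complement genes rose, Cfd, and 1 fell, C6 (−0.95 ± 0.11, edgeR adjusted p = 0.00294). Cfd, a complement protease gene, read 2.55, 2.92, 35.1 and 6.78 CPM in these GRLKO livers against 0.283, 0, 0 and 0 CPM in WT. The 6 adipocyte markers, with Fabp4 the most abundant over all libraries and 1 of the 6 at 0 throughout, summed to between 4.15 and 8.40 CPM in WT. In GRLKO their sum had a median of 8.43 CPM and was 53.2 CPM in replicate 3, of which Cidec, a gene of fat droplets, gave 50.1 CPM and Fabp4 3.10 CPM. Fabp4 did not pass (0.012 ± 0.18, edgeR adjusted p = 0.989), and what lies behind the Cfd values was not tested. Over the whole day Cfd passed on control diet (edgeR adjusted p = 9.09e-10), and Cidec rose by 2.66 ± 0.18 on caloric restriction and 2.71 ± 0.36 on control diet, while Fabp4 did not pass on either diet.

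Averaging the genotype difference over the 6 time points used all libraries of a diet in a single fit. On caloric restriction 17 of 36 members changed, 3 upward and 14 downward, beside 32.9% of 13041 genes (15.6% upward, 17.3% downward). On control diet 16 of 36 changed, 3 upward and 13 downward, beside 18.6% of 12834 genes (10% upward, 8.59% downward). The median log2 fold change of the members was −0.10 and −0.07, and that of all genes 0.00 to that precision on both diets. Each comparison has its own WT and GRLKO libraries. Cell markers moved with genotype here too: 4 of 7 hepatocyte markers fell on each diet, with Alb at −0.21 ± 0.04 and −0.21 ± 0.05 and Apoa1 at −0.77 ± 0.08 and −0.52 ± 0.05, and 6 of 6 endothelial markers rose on caloric restriction. Their part in the member results was not tested.

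C8a, C8b, C9 and Hc fell without GR on both diets. C8a ranged from 87.6 to 606 CPM in the 18 WT libraries on caloric restriction, with a median of 204 CPM, and from 47.5 to 693 CPM in GRLKO, with a median of 88.5 CPM. C8b ranged from 67.6 to 289.7 CPM (median 126 CPM) in WT and from 40.0 to 268 CPM (median 53.9 CPM) in GRLKO. The ranges overlapped over the day and also within a time, with C8a at ZT20 between 471 and 606 CPM in WT and between 281 and 693 CPM in GRLKO. The log2 fold changes over the day were −0.97 ± 0.22 for C8a, −0.93 ± 0.14 for C8b, −0.37 ± 0.13 for C9 and −0.37 ± 0.05 for Hc (edgeR adjusted p = 0.000866, 1.16e-05, 0.0246 and 1.79e-06), and C8g fell by 0.14 ± 0.04. On control diet, C8b ranged from 317 to 498 CPM in the 22 WT libraries and from 221 to 345 CPM in the 20 GRLKO libraries. The log2 fold changes were −0.29 ± 0.05 for C8a, −0.47 ± 0.06 for C8b, −0.40 ± 0.05 for C9 and −0.40 ± 0.04 for Hc (edgeR adjusted p = 1.52e-05, 1.79e-07, 4.45e-07 and 4.58e-10).

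The clotting genes F9, F11, F7 and Cpb2 also fell on both diets. F9 ranged from 149 to 257 CPM (median 211 CPM) in WT on caloric restriction and from 119 to 185 CPM (median 147 CPM) in GRLKO. On control diet it ranged from 158 to 209.8 CPM (median 184 CPM) and from 145 to 173 CPM (median 158 CPM). The medians lay further apart on caloric restriction, where F9 fell by 0.47 ± 0.04 on the log2 scale against 0.19 ± 0.02 on control diet. F11 fell by 0.47 ± 0.10 and 0.37 ± 0.06, and the complement regulators Cfi and Vtn fell as well, Cfi by 0.21 ± 0.05 and 0.18 ± 0.02 and Vtn by 0.19 ± 0.04 and 0.10 ± 0.03. The fibrinogen chains Fga, Fgb and Fgg fell on control diet, by 0.21 ± 0.04, 0.18 ± 0.04 and 0.16 ± 0.04, and did not pass on caloric restriction averaged over the day.

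Upward changes were few. C2 ranged from 77.8 to 135 CPM (median 88.7 CPM) in WT and from 86.5 to 159 CPM (median 123 CPM) in GRLKO on caloric restriction, and Mbl2 from 271 to 413 CPM (median 331 CPM) and from 297 to 484 CPM (median 411 CPM). Both genes stood higher without GR by their medians. On caloric restriction C2 rose by 0.34 ± 0.04 and Mbl2 by 0.30 ± 0.04, and on control diet by 0.21 ± 0.04 and 0.32 ± 0.05. F13b, the carrier of the fibrin-crosslinking enzyme, rose by 0.10 ± 0.03 on caloric restriction (edgeR adjusted p = 0.0154), and C4b by 0.11 ± 0.04 on control diet (edgeR adjusted p = 0.0426).

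Some of these calls rest on few libraries. A pass in which all libraries of replicate number 3 were left out gave 11 members on caloric restriction in place of 17. F13b lost its call without replicate 2 or 3 (edgeR adjusted p = 0.124 and 0.141), and C9 without replicate 2 or 3 (0.236 and 0.0825). On control diet C4b lost it without replicate 1, 2 or 4 (edgeR adjusted p = 0.0738, 0.333 and 0.103) and with no filter on low counts (0.0724). WT replicate 2 at ZT8 on caloric restriction stood apart, with 4.95% of its counts in the members against 3.37% and 3.44% in the other WT libraries of that time. Leaving it out, chosen after seeing the data, gave 16 members, and C9 no longer passed (edgeR adjusted p = 0.0505).

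The difference between the diets in the effect of genotype was tested as an interaction. F9 was the sole member past the test, 1 of 36 beside 3.01% of 13376 genes for the mean over the day and 1 of 36 beside 1.01% of 12225 genes at ZT12. The fall of F9 was larger on caloric restriction, by −0.28 ± 0.045 over the day (edgeR adjusted p = 4.32e-05) and −0.47 ± 0.10 at ZT12 (edgeR adjusted p = 0.0483). The ZT12 call was lost when replicate number 1, 2, 3 or 4 was left out, each leaving 0 members by edgeR, and the mean over the day gave 3 members without replicate 1. An unadjusted p under 0.05 was reached by 6 and 5 members, beside 2128 of 13376 and 1742 of 12225 genes. DESeq2 called 3 members in each case, without a share of all genes here. C8a (−0.68 ± 0.21, edgeR adjusted p = 0.0551) and C8b (−0.45 ± 0.15, edgeR adjusted p = 0.0912) did not pass over the day. Diet in the time series coincides with the library batch, so a batch that acted on the genotypes unequally cannot be told apart from the interaction.

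**Figure D4:**
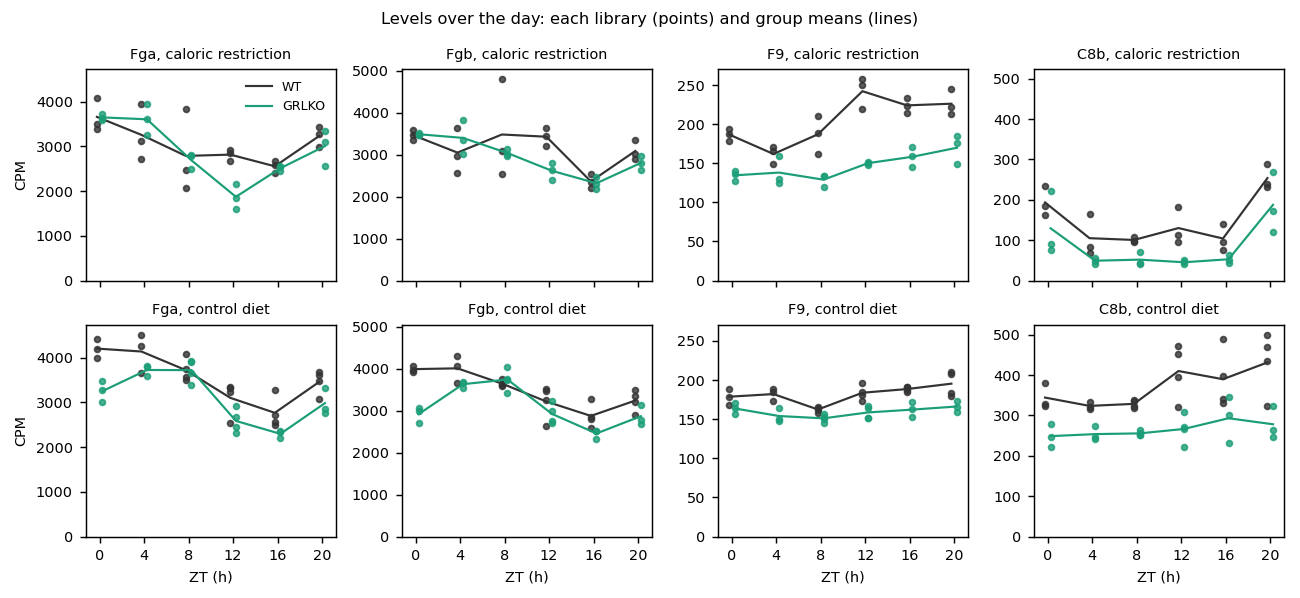
CPM of Fga, Fgb, F9 and C8b over the day in WT and GRLKO liver, for caloric restriction and for control diet, with a point per library and lines through the group means (3 or 4 libraries a point). F9 in GRLKO lies between 119 and 185 CPM on caloric restriction and between 145 and 173 CPM on control diet, against 149 to 257 CPM and 158 to 209.8 CPM in WT.

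Daily rhythms were sought in each genotype and diet with JTK_CYCLE, a rank test for a curve of 24 h, at an adjusted p under 0.05 over all genes. In WT, 6 of 36 members were rhythmic on caloric restriction beside 36.2% of all genes, and 19 of 36 on control diet beside 43.7%. In GRLKO, 16 of 36 were rhythmic on caloric restriction beside 31%, and 10 of 36 on control diet beside 35.9%. An unadjusted p under 0.05 was reached by 10, 22, 24 and 17 members in that order. The counts of all genes beside them were 5813 of 13041, 6522 of 12834, 5521 of 13041 and 5984 of 12834. The ratio of the highest to the lowest time-point mean among rhythmic members had a median of 1.503 and 1.29 in WT and 1.52 and 1.46 in GRLKO, on caloric restriction and control diet.

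Serpinf2, C2 and Cfb were rhythmic in all 4 series. Serpinf2 was highest at ZT0 in WT on caloric restriction, at 887 ± 64.5 CPM (SD, n = 3), and lowest at ZT16, at 387 ± 59.7 CPM (SD, n = 3). On control diet in WT it was highest at ZT4, at 761 ± 91.0 CPM (SD, n = 3), and lowest at ZT16, at 465 ± 40.5 CPM (SD, n = 4). GRLKO had its highest and lowest means at the same times, ZT0 and ZT16 on caloric restriction and ZT4 and ZT16 on control diet. C2 was highest at ZT12 in 3 of the 4 series and at ZT16 in GRLKO on control diet.

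The fibrinogen genes were rhythmic in 3 of the 4 series and high in the light phase. In WT on control diet, Fga went from 4203 ± 214 CPM (SD, n = 3) at ZT0 to 2767 ± 356 CPM (SD, n = 4) at ZT16, and in GRLKO on control diet from 3725 ± 127 CPM (SD, n = 3) at ZT4 to 2297 ± 80.9 CPM (SD, n = 3) at ZT16. In GRLKO on caloric restriction it went from 3650.2 ± 72.9 CPM (SD, n = 3) at ZT0 to 1874 ± 279.9 CPM (SD, n = 3) at ZT12. Its lowest mean there fell at ZT12, as did that of Fgg. In WT on caloric restriction the Fga means ranged from 2557 ± 143 CPM (SD) at ZT16 to 3662 ± 373 CPM (SD) at ZT0. No chain passed there, and for Fga JTK_CYCLE gave an adjusted p = 0.141.

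C8b had the widest rhythm among the members called in any series, in GRLKO on caloric restriction, from 188 ± 74.7 CPM (SD, n = 3) at ZT20 down to 45.4 ± 5.56 CPM (SD, n = 3) at ZT12. In WT on caloric restriction C8a was nearly as uneven, from 547 ± 69.0 CPM (SD, n = 3) at ZT20 to 137 ± 66.2 CPM (SD, n = 3) at ZT16. In GRLKO on caloric restriction it was more uneven than either, from 486 ± 206 CPM (SD, n = 3) at ZT20 to 59.7 ± 9.92 CPM (SD, n = 3) at ZT4. C8a did not pass by JTK_CYCLE in either genotype on caloric restriction (adjusted p = 0.295 in WT and 0.0656 in GRLKO). The curve that JTK_CYCLE seeks and a plain difference between times are not the same test. By an edgeR F test over the 6 time points, 22, 20, 28 and 10 members varied in WT on caloric restriction, WT on control diet, GRLKO on caloric restriction and GRLKO on control diet. The share of all genes by this F test is not given here, so these counts do not set the members against other genes.

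The rhythm counts depend on the number of libraries. With replicate number 1, 2 or 3 left out at every time, 0, 2 and 1 members were rhythmic by JTK_CYCLE in WT on caloric restriction, and 2, 2 and 8 in GRLKO on caloric restriction. On control diet the counts were 13, 9, 15 and 14 without replicate 1, 2, 3 and 4 in WT, and 7, 3, 4 and 10 in GRLKO. Leaving out WT replicate 2 at ZT8 on caloric restriction gave 7 members in place of 6.

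A member rhythmic in WT and not in GRLKO, or the reverse, is not thereby shown to differ, so the difference in rhythm was tested with limma. Between GRLKO and WT, 0 of 36 members differed on caloric restriction beside 0.659% of all genes and 0 of 36 on control diet beside 0.366%. By limma 6 and 4 members had an unadjusted p under 0.05, beside 1575 of 13041 and 1261 of 12834 genes. Between diets in WT, where batch and diet cannot be told apart, 12 of 36 members differed beside 26.6% of 12971 genes. These were C2, Mbl1, C3, C8b, C8g and C4bp of complement and F9, F11, F12, Kng1, Serpind1 and Serpinf2 of coagulation. The count was 5, 5, 2 and 9 without replicate number 1, 2, 3 and 4, and 10 and 14 without WT replicate 3 at ZT0 on control diet and WT replicate 2 at ZT8 on caloric restriction, both chosen after seeing the data.

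Some members lie side by side in the genome. On chromosome 3 (GRCm38), Fgg (ENSMUSG00000033860), Fga (ENSMUSG00000028001) and Fgb (ENSMUSG00000033831) follow each other, with gaps of 11.03 kb and 6.51 kb, and Fgb on the strand opposite to the other genes. C8b (ENSMUSG00000029656) and C8a (ENSMUSG00000035031) lie 11.1 kb apart on chromosome 4, on opposite strands. Cfb and C2 lie 0.086 kb apart on chromosome 17, and F7 and F10 1.499 kb apart on chromosome 8. The fibrinogen genes moved together in the corticosterone comparison and in GRLKO on caloric restriction at ZT12, and C8a, C8b and C9 in the diet comparison, which is why the DNA before their starts is shown.

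The 250 bases before the RefSeq start were read for 27 of the 36 members from the RefSeq promoters of GRCm38.p6, among 32851 promoters searched on both strands. The choice of genes shown and the allowance of 2 mismatches for HNF1 were made with the results in view. Motifs were CTGGGAA, the core of an acute phase element, in 9.1% of all promoters and in 4 of the 27 members, TTCNNNGAA, the STAT consensus, in 7.02% and 5, and TTGCNNAA, a C/EBP-like motif whose reverse complement is TTNNGCAA, in 9.56% and 7. TTATGNAA, a D-box, was in 3.07% and 2 members, CACGTG, an E-box, in 6.02% and 0, and TGTTCT, an arm of the glucocorticoid response element, in 16.1% and 10. HNF1 by its consensus was in 1.08% and 5. The percentages count each promoter by itself, while a member counts if any promoter listed for it matched. The member counts are therefore not on the same footing as the percentages and can run higher. Motifs can overlap: CTGGGAA fits inside TTCNNNGAA, and the match of C9 to the C/EBP-like motif is also its match to the D-box. Capitals mark every match in the sequences of Fga (chr3:83025903-83026152, plus strand), Fgb (chr3:83049864-83050113, minus strand), Fgg (chr3:83007474-83007723, plus strand), C8a (chr4:104876399-104876648, minus strand), C8b (chr4:104766067-104766316, plus strand) and C9 (chr15:6445096-6445345, plus strand), each written 5′ to 3′ along its gene.
Fga: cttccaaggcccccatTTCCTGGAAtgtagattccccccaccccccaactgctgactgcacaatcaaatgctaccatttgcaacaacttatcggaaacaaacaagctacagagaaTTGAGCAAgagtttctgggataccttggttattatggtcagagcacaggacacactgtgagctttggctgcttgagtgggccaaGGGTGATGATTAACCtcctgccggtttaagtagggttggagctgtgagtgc
Fgb: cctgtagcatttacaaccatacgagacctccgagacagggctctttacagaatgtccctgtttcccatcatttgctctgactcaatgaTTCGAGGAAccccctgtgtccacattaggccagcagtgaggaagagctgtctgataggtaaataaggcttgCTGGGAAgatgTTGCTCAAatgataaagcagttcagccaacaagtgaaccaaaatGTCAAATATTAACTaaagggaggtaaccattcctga
Fgg: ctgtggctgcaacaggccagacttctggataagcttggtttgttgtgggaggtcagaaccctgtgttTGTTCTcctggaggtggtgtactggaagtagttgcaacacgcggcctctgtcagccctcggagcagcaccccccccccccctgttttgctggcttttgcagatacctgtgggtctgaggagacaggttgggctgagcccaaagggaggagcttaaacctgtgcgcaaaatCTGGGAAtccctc
C8a: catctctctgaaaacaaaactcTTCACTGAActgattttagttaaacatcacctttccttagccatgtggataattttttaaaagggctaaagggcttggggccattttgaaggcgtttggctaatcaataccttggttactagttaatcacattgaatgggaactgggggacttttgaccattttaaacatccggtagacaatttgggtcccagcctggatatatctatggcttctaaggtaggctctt
C8b: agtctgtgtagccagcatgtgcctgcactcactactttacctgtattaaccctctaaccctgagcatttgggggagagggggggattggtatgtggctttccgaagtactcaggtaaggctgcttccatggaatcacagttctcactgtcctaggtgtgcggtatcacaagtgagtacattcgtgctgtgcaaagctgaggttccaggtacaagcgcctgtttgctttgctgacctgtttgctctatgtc
C9: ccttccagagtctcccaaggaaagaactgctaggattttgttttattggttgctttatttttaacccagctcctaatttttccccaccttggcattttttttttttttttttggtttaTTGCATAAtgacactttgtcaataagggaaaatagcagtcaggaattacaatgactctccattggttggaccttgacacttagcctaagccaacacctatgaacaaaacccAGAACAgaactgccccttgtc
Fga matched the STAT, C/EBP-like and HNF1 motifs, Fgb the same and CTGGGAA, and Fgg CTGGGAA and TGTTCT. C8a matched the STAT motif, C9 the C/EBP-like motif, the D-box and TGTTCT, and C8b none of the 7. A match describes letters in this window and is neither a binding site nor a cause.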

How the data were processed

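RNA of 90 mouse liver libraries in 28 groups was analysed from 4 tables of estimated counts per gene, which the authors made with Salmon and tximport and deposited without scaling to library size. Counts were rounded to whole numbers. Each of 14 comparisons of 2 groups was fitted on its own libraries with edgeR 4.0.16 in R 4.3.3: TMM scaling, filterByExpr with a minimum count of 10, quasi-likelihood F test, and Benjamini-Hochberg adjustment over all genes tested, at 0.05. Means over 6 time points and interactions were contrasts of fits with 1 coefficient per group. SE is the log2 fold change divided by the square root of F. CPM use TMM factors over all libraries of a table. Rhythms were tested with JTK_CYCLE, rewritten in R, on variance-stabilised values (DESeq2 1.42.0), with a 24 h period and 6 phases, and differences between rhythms with limma 3.58.1. The code was tested on simulated data.

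Median totals were 13427104, 17386700, 37407547 and 14431388 counts for the time series on control diet, that on caloric restriction, the diet experiment and the corticosterone experiment. Within the groups, 102 pairs of libraries differed by more than counting noise, with a chi-square per degree of freedom of at least 10.95 (median 23.9).

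Per-library values are printed for Nr3c1, for fibrinogen and, per main comparison, for up to 5 members per direction with the largest called change and a group mean of at least 5 CPM, with further members where the text needs them. The members, the 4 lists of related genes and the 10 lists of cell markers were chosen with earlier results of these data known. Alternatives were DESeq2, RLE size factors, no filter beyond 1 count, a replicate block, a joint fit per diet, and each replicate left out. Klkb1, which matched no symbol, was left out.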

Additional observations from a re-analysis of the deposited data

Results flagged for a closer look

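In groups of 4 libraries, a value was set aside for mention where its gap to the next value took up more of the group's range than Dixon's test allows at the 95% level. Of 222 sets compared, each the 4 values of a gene in a group, 19 held a value that stood apart. Chance alone flags about 1 in 20 such sets. All are from the time series on control diet, the part of the series with groups of 4.

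Among complement genes at ZT8, C1s1 in WT replicate 2 read 614 CPM (next 577 CPM), C4b in WT replicate 3 read 1237 CPM (next 1218 CPM), C2 in GRLKO replicate 4 read 126 CPM (next 152 CPM), Mbl2 in GRLKO replicate 3 read 383 CPM (next 304 CPM) and Hc in GRLKO replicate 4 read 696 CPM (next 732 CPM). At ZT12, Masp2 in GRLKO replicate 3 read 304 CPM (next 268 CPM) and C8g in GRLKO replicate 4 read 267 CPM (next 293 CPM). At ZT16, C4b in WT replicate 3 read 1518 CPM (next 1217 CPM).

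Among coagulation genes at ZT8, F10 in GRLKO replicate 3 read 434 CPM (next 407 CPM), F11 in WT replicate 4 read 99.5 CPM (next 79.3 CPM) and Proc in GRLKO replicate 4 read 8.16 CPM (next 0.786 CPM). At ZT12, Fga in WT replicate 1 read 2531 CPM (next 3222 CPM) and F12 in GRLKO replicate 4 read 438 CPM (next 472 CPM). At ZT16, F7 in WT replicate 3 read 124 CPM (next 106 CPM), F5 in WT replicate 2 read 753 CPM (next 639 CPM) and Plg in WT replicate 4 read 1841 CPM (next 2047 CPM). At ZT20, F10 in WT replicate 1 read 436 CPM (next 402 CPM), Proc in WT replicate 4 read 11.6 CPM (next 2.27 CPM) and Serpinf2 in WT replicate 4 read 533 CPM (next 601 CPM).

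Other results are listed because a test of the difference between groups passed. The effect of genotype on F9 differed between diets by −0.28 over the day and by −0.47 at ZT12. The ZT12 call was lost whichever replicate number was left out. The rhythm in WT differed between diets, by limma with Benjamini-Hochberg adjustment, for C2 (adjusted p = 0.00753), Mbl1 (adjusted p = 0.00145), C3 (adjusted p = 0.00293), C8b (adjusted p = 0.0484), C8g (adjusted p = 0.0431) and C4bp (adjusted p = 0.00469). The same held for F9 (adjusted p = 0.00917), F11 (adjusted p = 0.0192), F12 (adjusted p = 0.00321), Kng1 (adjusted p = 0.0136), Serpind1 (adjusted p = 0.00368) and Serpinf2 (adjusted p = 0.0217). Diet in these series coincides with the library batch, and the cause was not tested.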

How the results depend on the processing

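Counts of members past the test moved with the tool, the fit and the libraries used. Counts under these alternatives, here and above, are given without the share of all genes. They compare settings and do not set the members against other genes. DESeq2 called 14 members for corticosterone against 8 by edgeR. For GRLKO on caloric restriction it called 3, 1, 8, 15 and 7 at ZT0, ZT4, ZT8, ZT12 and ZT20, against 1, 0, 0, 9 and 1 by edgeR. For GRLKO on control diet it called 10, 5, 6, 2 and 4 at ZT0, ZT4, ZT12, ZT16 and ZT20, against 0, 0, 2, 1 and 0. For the interaction of genotype and diet DESeq2 called 3 over the day and 3 at ZT12, against 1 and 1. An edgeR F test over the time points called 22 members in WT and 28 in GRLKO on caloric restriction, against 6 and 16 by JTK_CYCLE.

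A joint fit of all libraries of a diet gave 2, 6 and 6 members at ZT0, ZT8 and ZT20 on caloric restriction, and 8, 1, 8, 3 and 6 at ZT0, ZT8, ZT12, ZT16 and ZT20 on control diet. Without a filter beyond 1 count, 1 member passed at ZT8 on caloric restriction and 0 by edgeR for the interaction at ZT12, where 5 had an unadjusted p under 0.05 in the filtered fit.

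With the replicate number as a replicate block, the counts were 3 for corticosterone, 0, 4, 1 and 0 for GRLKO at ZT0, ZT12, ZT16 and ZT20 on caloric restriction, 0, 0 and 0 at ZT8, ZT12 and ZT16 on control diet, and 0 for the interaction at ZT12, all by edgeR. The numbers do not pair libraries: residuals of equal numbers correlated between −0.232 and 0.248, and in 0 of 14 comparisons were all pairs above 0.1. The block then costs residual degrees of freedom.

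With 1 library left out, the lowest and highest edgeR counts were 16 and 21 for diet and 0 and 5 for corticosterone. For GRLKO on caloric restriction they were 0 and 1 at ZT0, 0 and 2 at ZT8, 4 and 9 at ZT12, 2 and 3 at ZT16 and 0 and 1 at ZT20. On control diet they were 3 and 4 at ZT8, 0 and 3 at ZT12 and 0 and 1 at ZT16, and 0 throughout at ZT0, ZT4 and ZT20, as at ZT4 on caloric restriction. With 1 replicate number or a library chosen after seeing the data left out, they were 11 and 16 (caloric restriction) and 13 and 16 (control diet) for the mean over the day, and 1 and 3 for the mean interaction. The rhythm counts ran from 0 to 7 in WT and from 2 to 8 in GRLKO on caloric restriction, from 9 to 17 and from 3 to 10 on control diet, and from 2 to 14 for the difference between diets.

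Of 38 log2 fold changes of named members, DESeq2 kept 38 past the threshold, RLE size factors 37, no filter 37 and the block 33. Of 208 fits with libraries left out, 164 kept the call, 44 lost it, and 0 turned the direction. The median of all genes stayed between −0.033 and 0.031 in every scaling tried. Why calls near the threshold were lost was not tested. Further limits are the whole-liver RNA, the floxed controls without Cre, the batch that coincides with diet in the time series, the near-identical copies of C4b, Kng1 and C1s1, and the low counts of Proc.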
